A study of Homo sapiens with 6 samples.

Results

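The genes described here encode 8 proteins of the RAS–RAF–MEK–ERK kinase cascade, namely the exchange factor SOS1, the GTPases HRAS and NRAS, the kinases ARAF and BRAF, the kinases MEK1 (MAP2K1) and MEK2 (MAP2K2), and the kinase ERK1 (MAPK3). They were chosen by symbol among the 60605 genes with an Ensembl identifier in the table, by a rule that uses no measured value, although earlier results of these data were known when they were chosen, and all 8 were detected in every library and tested. RNA-seq libraries were made from LX-2, a human cell line of hepatic stellate cell (HSC) origin, after 24 hours of culture in medium conditioned by the human colorectal cancer line HCT116. The HCT116 cells carried either the lentiviral control vector (Vector-CM, n = 3) or the same vector driving FGFBP1, a protein that is secreted and carries fibroblast growth factors, from a ubiquitin promoter (FGFBP1-CM, n = 3), and both carried the vector's puromycin resistance. The libraries are of the LX-2 cells that received the medium, not of the HCT116 cells that made it, and there was no group without conditioned medium. No label says that the 3 replicates of a group were separate cultures, so p-values measure only the spread between these libraries, which may be technical.

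Ligand-bound receptor tyrosine kinases, the fibroblast growth factor receptors among them, bring SOS1 to the membrane, where it loads RAS with GTP. GTP-bound RAS activates RAF kinases, which phosphorylate MEK1 and MEK2, and these in turn phosphorylate ERK. The cascade is switched by GTP loading and phosphorylation of existing proteins, so transcript levels describe how much of each component could be made and not its activity, which these libraries do not measure. In HSCs this pathway is known for its part in the proliferative response to growth factors.

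Each library held between 14003780 and 18508113 counts, of which the 8 genes together took 0.0595% to 0.0631%. FGFBP1-CM replicate 1 stood apart from its group, with a chi-square per degree of freedom of 10.3 and 9.50 against the other two, compared with 2.81 to 5.71 for the remaining pairs within a group. Of 15 stellate and fibroblast markers, 14 were detected and 12 had enough counts to be tested, while LRAT was at 0. Over the 6 libraries, DES had only 14 counts and GFAP 52. Under Vector-CM the markers summed to 3685 to 3942 CPM (counts relative to a TMM-scaled library total), and under FGFBP1-CM to 2832 to 3394 CPM. VIM alone made up most of these sums, with mean levels of 2591 and 2160 CPM in that order. The 10 colorectal epithelial markers summed to 1.06 to 1.95 CPM and 1.21 to 1.35 CPM, with CEACAM5, CEACAM6 and TFF3 at 0. The 10 hepatocyte markers summed to 41.0 to 44.1 CPM and 18.2 to 28.0 CPM, with none at 0 in every library. SERPINA1 alone made up most of these sums, with mean levels of 29.6 and 20.7 CPM, while TTR had only 3 counts over the 6 libraries. The 10 endothelial and immune markers summed to 7.82 to 9.33 CPM and 6.24 to 10.4 CPM. The stellate and hepatocyte sums did not overlap between the groups. Among single genes tested, 26.0% did not overlap in either direction. The part of these marker differences in the values that follow was not tested.

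The sequence before the transcription start is shown for the 4 genes on which the comparisons turn, which are MAPK3 and ARAF, whose groups did not overlap, and HRAS and NRAS, the GTPase pair whose FPKM ratio did not overlap between the groups as deposited. Each is the 250 bases upstream of the RefSeq start (GRCh38.p14), at chr16:30123221-30123470 (minus strand), chrX:47560955-47561204 (plus strand), chr11:535577-535826 (minus strand) and chr1:114716772-114717021 (minus strand), read 5′ to 3′ along the gene. Capitals mark matches to the SP1 motif GGGGCGGGG or the ETS motif CCGGAAG on either strand.
MAPK3: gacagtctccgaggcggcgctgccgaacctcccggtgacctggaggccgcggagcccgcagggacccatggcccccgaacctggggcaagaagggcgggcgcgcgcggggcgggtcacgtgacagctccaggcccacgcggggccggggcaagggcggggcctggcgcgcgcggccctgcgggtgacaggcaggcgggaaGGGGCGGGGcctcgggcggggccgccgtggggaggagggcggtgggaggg
ARAF: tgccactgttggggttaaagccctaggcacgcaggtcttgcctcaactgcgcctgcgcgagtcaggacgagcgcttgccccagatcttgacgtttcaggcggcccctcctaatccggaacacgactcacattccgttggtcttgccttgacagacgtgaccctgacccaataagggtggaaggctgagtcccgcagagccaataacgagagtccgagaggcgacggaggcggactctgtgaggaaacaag
HRAS: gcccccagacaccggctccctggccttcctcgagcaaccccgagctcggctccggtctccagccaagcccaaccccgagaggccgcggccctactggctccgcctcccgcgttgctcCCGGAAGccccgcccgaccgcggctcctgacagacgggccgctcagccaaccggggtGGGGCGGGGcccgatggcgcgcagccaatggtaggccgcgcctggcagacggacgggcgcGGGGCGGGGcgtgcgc
NRAS: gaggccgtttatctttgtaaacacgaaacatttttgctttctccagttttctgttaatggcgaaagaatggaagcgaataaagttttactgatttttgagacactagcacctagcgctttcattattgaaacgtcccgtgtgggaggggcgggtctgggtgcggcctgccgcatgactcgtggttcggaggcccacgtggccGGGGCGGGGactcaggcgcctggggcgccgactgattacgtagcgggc
The SP1 letters occurred at 1 position in the MAPK3 window and 1 in that of NRAS, while the HRAS window held 2 matches to SP1 and 1 to ETS, and the ARAF window held none. Of the genes whose windows are not shown, MAP2K1 held 2 matches to SP1 and none to ETS. MAP2K2, BRAF and SOS1 held no match to either. The windows shown were picked by the values of their genes in these data. No matches overlapped. Among all 35116 promoters of the RefSeq table, 15.1% held the SP1 letters and 8.52% the ETS letters. The EGR motif GCGTGGGCG, searched on both strands because EGR1 is an ERK target, was found in 0.720% of all promoters and in 0 of the 8 windows. These matches describe letters only and are neither binding sites nor causes. The windows differed in base composition, with a GC content of 80.4% for MAPK3, 77.2% for HRAS, 59.2% for ARAF and 54.4% for NRAS, against a median of 58.0% over all promoters.

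To ask how much transcript of each tier LX-2 cells carried, levels were compared per length as FPKM, the deposited fragment count divided by gene length and library size. NRAS was the highest at 32.0 ± 2.11 FPKM (mean ± SD over 6 libraries), followed by MAP2K1 at 26.4 ± 0.882 FPKM. ARAF and MAPK3 followed at 18.4 ± 1.22 and 18.3 ± 1.81 FPKM. SOS1 and MAP2K2 were lower, at 11.5 ± 1.31 and 10.8 ± 0.541 FPKM, and HRAS and BRAF were lowest at 5.72 ± 0.219 and 3.83 ± 0.341 FPKM. Neighbours in this order were separated in 6 of 6 libraries with ranges that did not overlap, except that ARAF was above MAPK3 in 4 of 6 libraries and SOS1 above MAP2K2 in 5 of 6. NRAS therefore exceeded HRAS 5.59-fold (5.29 to 5.96 within a library), ARAF exceeded BRAF 4.84-fold (4.22 to 5.61) and MAP2K1 exceeded MAP2K2 2.45-fold (2.27 to 2.81) on the FPKM scale.

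**Figure D1:**
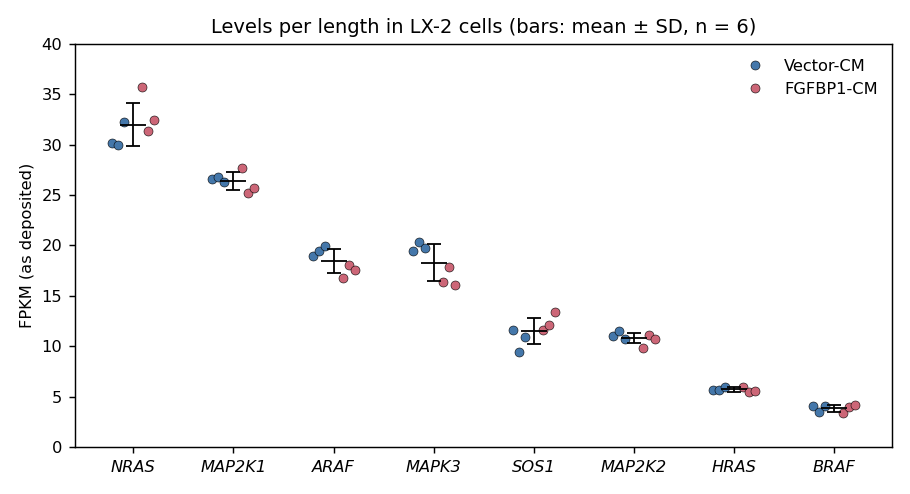
Deposited FPKM (linear axis from 0) of the 8 genes in each of the 6 libraries, coloured by conditioned medium, with bars for the mean ± SD over all 6 libraries. NRAS stands highest at 32.0 FPKM and BRAF lowest at 3.83 FPKM, and the points of ARAF and MAPK3 and those of SOS1 and MAP2K2 overlap.

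The order and the ratios depended on the length by which counts were divided. The BRAF FPKM implies a length of 23433 bases, whereas its longest annotated transcript has 9578 bases. Divided by the longest transcript instead, levels ran from 31.2 CPM per kilobase for NRAS through MAPK3 (26.3), ARAF (25.2), MAP2K1 (23.0), MAP2K2 (19.4), SOS1 (13.0) and HRAS (11.3) to 9.40 for BRAF. NRAS stayed first and HRAS and BRAF last, while MAP2K1 moved from the second place to the fourth. On that scale, NRAS exceeded HRAS 2.75-fold, ARAF exceeded BRAF 2.69-fold and MAP2K1 exceeded MAP2K2 1.19-fold, all lower than in FPKM.

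The comparison of FGFBP1-CM with Vector-CM asks whether medium from FGFBP1-overexpressing tumor cells alters the transcripts of the cascade itself. None of the 8 genes passed the adjusted threshold of 0.05 (edgeR quasi-likelihood test, Benjamini-Hochberg over 16707 genes), against 0.120% of all genes tested. MAPK3 and ARAF had the lowest p-values of the 8 genes, with mean levels that differed by -17.4% and -12.4% from those in Vector-CM. At an unadjusted p under 0.05, 2 of 8 (25.0%) were counted, against 21.7% of all genes, and both were lower in FGFBP1-CM, against 10.7% of all genes in that direction. The same 2 had groups that did not overlap, against 26.0% of all genes in either direction and 13.2% lower in FGFBP1-CM. These shares are near those over all genes in either direction, and with 8 genes the counts describe the 2 genes rather than the cascade. Leaving out FGFBP1-CM replicate 1 raised the genes without overlap to 5 of 8, namely MAPK3, MAP2K1, ARAF, HRAS and SOS1, against 31.7% of all genes. The median log2 fold change was -0.05 over the 8 genes, 6 of them below 0, compared with 0.0032 over all genes, 49.3% of them below 0. In bulk libraries, fewer cells of a type and less RNA per cell cannot be told apart.

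SOS1 (ENSG00000115904, GRCh38 chr2:38981396-39124345) is the exchange factor that loads RAS with GTP. Its level was 112, 92.0 and 108 CPM in Vector-CM replicates 1 to 3 and 109, 117 and 128 CPM in FGFBP1-CM. Vector-CM replicate 1 lay above the lowest FGFBP1-CM library, so the groups overlapped in CPM. In deposited FPKM they were barely separate, with Vector-CM replicate 1 at 11.564 and FGFBP1-CM replicate 1 at 11.569. On that scale 26.3% of all genes did not overlap. The log2 fold change was 0.18 (SE 0.0842, 95% CI -0.00044 to 0.36, edgeR adjusted p = 0.231). Leaving out FGFBP1-CM replicate 1 gave 0.24, with an edgeR adjusted p of 0.172 and an unadjusted p of 0.00858. The difference was smaller, at 0.10 and 0.12, without Vector-CM replicate 2 or FGFBP1-CM replicate 3 (edgeR adjusted p = 0.562 and 0.47). SOS1 had the highest spread in Vector-CM, with a coefficient of variation of 10.2% against a counting error of 2.80% in the shallowest library.

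HRAS (ENSG00000174775, chr11:532242-537287), a membrane-anchored GTPase that signals when bound to GTP, was at 13.73, 13.96 and 14.96 CPM in Vector-CM and 14.24, 13.37 and 13.52 CPM in FGFBP1-CM. The groups overlapped, with Vector-CM replicate 3 the highest of the 6 libraries. Its log2 fold change was -0.05 (SE 0.0994, 95% CI -0.26 to 0.16, edgeR adjusted p = 0.812), and with 193 to 270 counts it was the least deeply counted of the 8 genes. Its log2 fold change was -0.08 without FGFBP1-CM replicate 1. NRAS (ENSG00000213281, chr1:114704469-114716894), a closely related GTPase, was at 131, 131 and 143 CPM in Vector-CM and 151, 136 and 140 CPM in FGFBP1-CM. The third Vector-CM library lay above 2 of the FGFBP1-CM libraries, so these groups also overlapped. The log2 fold change of NRAS was 0.07 (SE 0.0672, 95% CI -0.07 to 0.22, edgeR adjusted p = 0.552), and without FGFBP1-CM replicate 1, its highest library, it was 0.03.

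ARAF (ENSG00000078061, chrX:47561100-47571920), a RAF kinase that RAS recruits to the membrane to phosphorylate MEK, was at 64.9, 67.1 and 69.7 CPM in Vector-CM and 55.7, 61.7 and 59.4 CPM in FGFBP1-CM. Every FGFBP1-CM library lay below every Vector-CM library. Its mean level went from 67.2 ± 2.38 CPM under Vector-CM to 58.9 ± 3.05 CPM under FGFBP1-CM (SD, n = 3 each). The log2 fold change was -0.19 (SE 0.0687, 95% CI -0.34 to -0.04), with an unadjusted p of 0.0155 and an adjusted p of 0.141 by edgeR. Leaving out FGFBP1-CM replicate 1, its lowest library, gave -0.15 (adjusted p = 0.328), and leaving out Vector-CM replicate 3 took its unadjusted p to 0.0766.

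BRAF (ENSG00000157764, chr7:140719327-140924928), the RAF kinase with the highest basal activity toward MEK, was at 94.7, 82.1 and 97.8 CPM in Vector-CM and 76.6, 92.4 and 96.8 CPM in FGFBP1-CM. The groups overlapped almost entirely, and the lowest value was that of FGFBP1-CM replicate 1. Its log2 fold change was -0.05 (SE 0.0919, 95% CI -0.25 to 0.15, edgeR adjusted p = 0.801), and without that library it was 0.05. BRAF exons share 1239 bases with NDUFB2 on the opposite strand, and since the strand setting of the counting is not given, reads there could belong to either gene. The ratio of ARAF to BRAF FPKM differed by -0.14 on the log2 scale, from 2.34 ± 0.133 to 2.20 ± 0.122 (SD, n = 3 each, two-sided exact permutation p = 0.3, adjusted p = 0.45 over 3 ratios), and the groups overlapped. Without FGFBP1-CM replicate 1 that difference was -0.20.

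**Figure D2:**
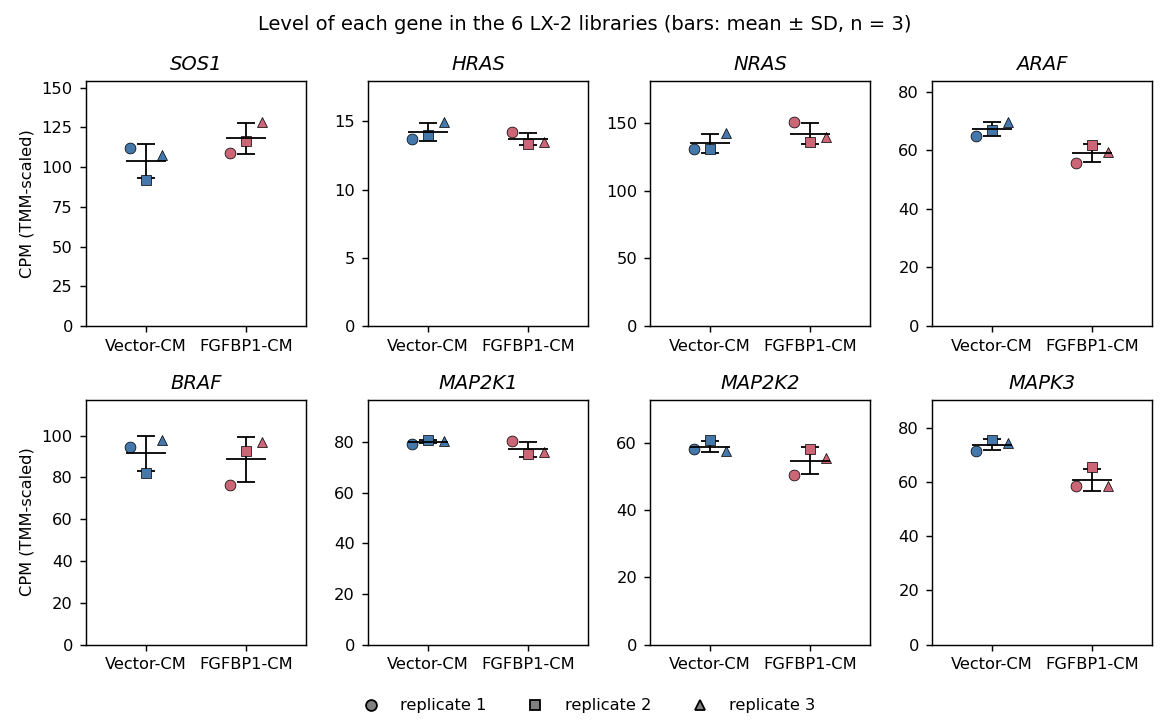
CPM (TMM-scaled, linear axes from 0) of the 8 genes in the 3 Vector-CM and 3 FGFBP1-CM libraries, with symbols for replicate numbers and bars for the mean ± SD of each group. The groups are separate for ARAF and MAPK3 and overlap for the other 6 genes.

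MAP2K1 (ENSG00000169032, chr15:66386817-66492312) encodes MEK1, which phosphorylates ERK on both residues of its activation loop. It was at 79.3, 80.6 and 80.2 CPM in Vector-CM and 80.4, 75.1 and 75.8 CPM in FGFBP1-CM. FGFBP1-CM replicate 1 lay within the Vector-CM range and the other two libraries below it. The log2 fold change was -0.05 (SE 0.063, 95% CI -0.19 to 0.08, edgeR adjusted p = 0.66), and without FGFBP1-CM replicate 1 it was -0.08. MAP2K1 varied least of the 8 genes in Vector-CM, with a coefficient of variation of 0.801%. That is below its counting error of 3.00% in the shallowest library, so it does not show that the gene is unusually stable.

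MAP2K2 (ENSG00000126934, chr19:4090321-4124129) encodes MEK2, the paralog with the same substrates. Its level was 58.1, 60.7 and 57.6 CPM in Vector-CM and 50.4, 58.1 and 55.5 CPM in FGFBP1-CM. FGFBP1-CM replicate 2 lay within the Vector-CM range and the other two libraries below it. The log2 fold change was -0.11 (SE 0.0726, 95% CI -0.26 to 0.05, edgeR adjusted p = 0.423), and without FGFBP1-CM replicate 1, its lowest library, it was -0.05. The ratio of MAP2K2 to MAP2K1 FPKM was -1.26 ± 0.034 on the log2 scale in Vector-CM and -1.31 ± 0.159 in FGFBP1-CM (SD, n = 3 each, two-sided exact permutation p = 0.9), with overlapping groups, and the difference went from -0.05 to 0.04 without FGFBP1-CM replicate 1.

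MAPK3 (ENSG00000102882, chr16:30114105-30123506) encodes ERK1, the kinase at the end of the cascade that phosphorylates transcription factors and further kinases. It was at 71.6, 75.5 and 74.4 CPM in Vector-CM and 58.7, 65.6 and 58.6 CPM in FGFBP1-CM. All 3 FGFBP1-CM libraries lay below all 3 Vector-CM libraries, and FGFBP1-CM replicate 2 was the nearest to them. The mean of the Vector-CM libraries was 73.8 ± 2.03 CPM and that of the FGFBP1-CM libraries 61.0 ± 4.04 CPM (SD, n = 3 each). MAPK3 had a log2 fold change of -0.28 (SE 0.0698, 95% CI -0.43 to -0.13), with an unadjusted p of 0.00159 and an adjusted p of 0.0736 by edgeR. Of all genes tested, 2.15% had a lower p. The adjusted p was 0.117 without FGFBP1-CM replicate 1 (log2 fold change -0.25) and 0.0287 without FGFBP1-CM replicate 2 (-0.33), where 5.15% of all genes passed. With all 6 libraries, MAPK3 also passed with DESeq2 (adjusted p = 0.0352, with 3.69% of all genes) and without the filter on low counts (0.0367, with 3.64%). Each of these settings called far more genes over the whole table than the 0.120% above. In the fit without the filter, the prior degrees of freedom were infinite, against 9.32 in the main fit. The quasi-likelihood variance of each gene was there set wholly by the trend over all genes.

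**Figure D3:**
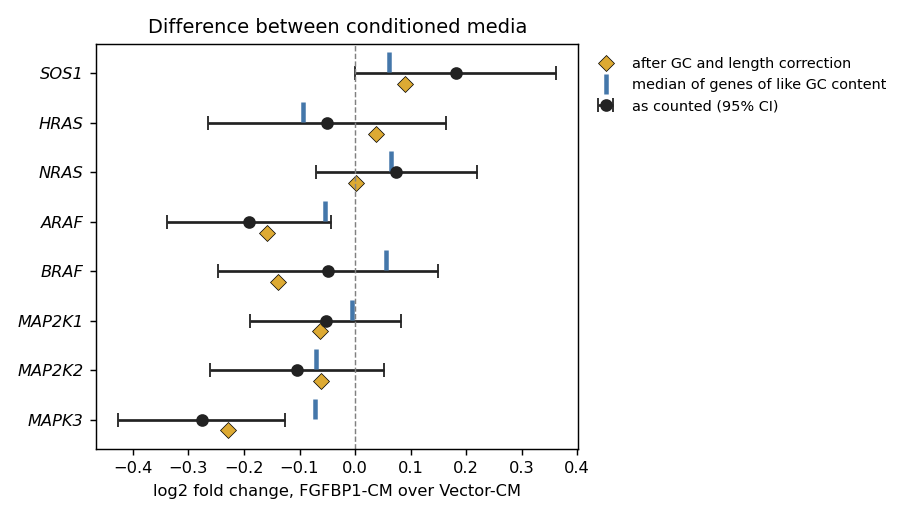
Log2 fold change of FGFBP1-CM over Vector-CM for the 8 genes as counted (black, with 95% confidence intervals), after correction for GC content and length (yellow diamonds), and the median of all tested genes within 2 percentage points of the same GC content (blue ticks). The intervals of MAPK3 and ARAF lie below 0, and the other 6 include 0.

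Base composition moved with the difference between the media across the whole table. Over 16401 genes, the log2 fold change and the GC content of the longest transcript had a Spearman rho of -0.206, given as a description across genes, which are not independent replicates. The 4 genes above 55% GC, which are MAPK3, MAP2K2, ARAF and HRAS, had a median log2 fold change of -0.15, and the 4 others had 0.01. MAPK3 has a GC content of 61.4%, and the 1410 genes within 2 percentage points of it had a median log2 fold change of -0.07, with 15.9% of them lower than MAPK3. For ARAF (58.9% GC) the corresponding median was -0.05, with 24.8% lower. After a correction for GC content and length, the log2 fold change was -0.23 for MAPK3 (edgeR adjusted p = 0.0988), -0.16 for ARAF (adjusted p = 0.227) and 0.09 for SOS1 (adjusted p = 0.455). The differences of MAPK3 and ARAF were thus smaller with the correction and kept their direction, whereas that of NRAS went from 0.07 to 0.0012 and that of HRAS from -0.05 to 0.04. The difference of BRAF was larger with the correction, at -0.14 (adjusted p = 0.33).

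**Figure D4:**
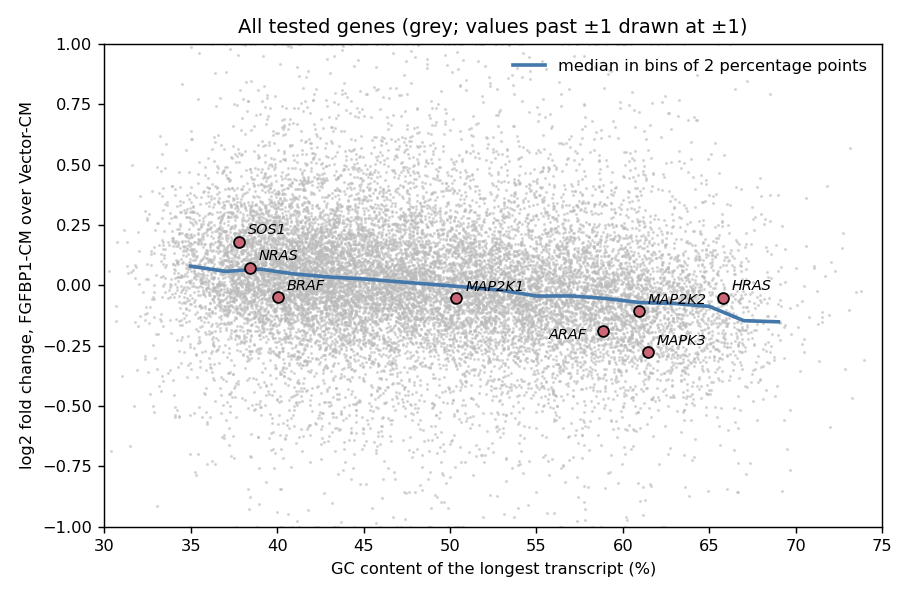
Log2 fold change of FGFBP1-CM over Vector-CM (values past ±1 drawn at ±1) against the GC content of the longest transcript in percent, for all tested genes with a value (grey), with the median in bins of 2 percentage points (blue line) and the 8 genes (red). The line falls with GC content, with MAPK3, ARAF and BRAF the farthest below it and HRAS and SOS1 above it.

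The GTPase pair had the only ratio of the 3 tested whose groups did not overlap. How often the ratios of other gene pairs do not overlap was not computed. The ratio of HRAS to NRAS FPKM was -2.43, -2.40 and -2.43 on the log2 scale in Vector-CM and -2.58, -2.51 and -2.54 in FGFBP1-CM. All 3 FGFBP1-CM libraries were lower, by -0.13 on average, and the spread within a group was 0.013 and 0.031 (SD, n = 3 each). Both spreads lie below the counting error of HRAS alone, which was 7.20% in its shallowest library (193 to 270 counts per library). They therefore do not measure how precise the difference is. The two-sided exact permutation p was 0.1, the smallest that 3 against 3 libraries allow, and 0.3 adjusted over the 3 ratios, so this design could not reach 0.05. Without FGFBP1-CM replicate 1 the difference was -0.11. HRAS (65.8% GC) and NRAS (38.4% GC) stand near opposite ends of base composition, and after the GC and length correction the difference was 0.03.

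**Figure D5:**
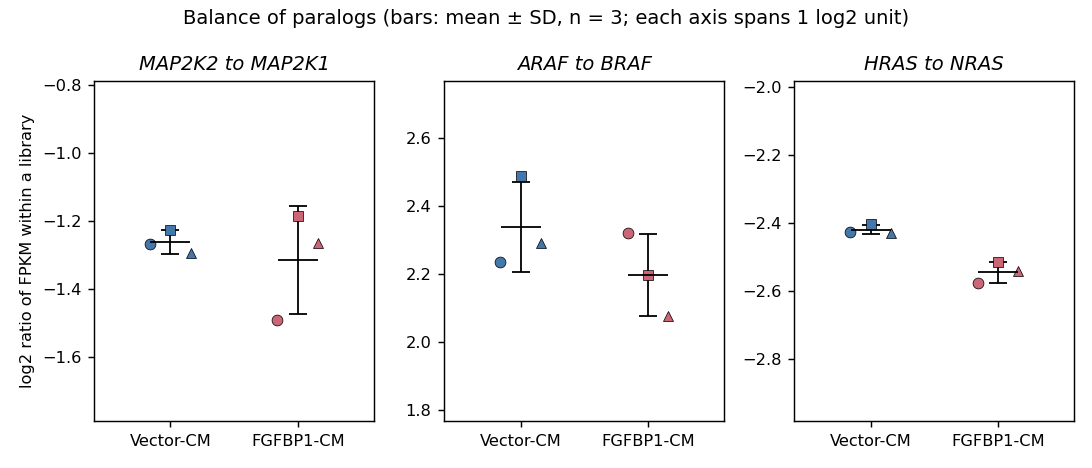
Log2 ratio of FPKM within each library for MAP2K2 to MAP2K1, ARAF to BRAF and HRAS to NRAS, by conditioned medium, with symbols for replicate numbers as in the plot of CPM and bars for the mean ± SD (n = 3). Each axis spans 1 log2 unit, and the groups are separate only for HRAS to NRAS, at -2.42 and -2.54 on average.

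Across the 6 libraries, genes whose log2 CPM varied closely with that of MAPK3, among 9757 genes with a symbol and a mean of at least 10 CPM, included CERCAM (Pearson r = 0.998) and HIP1, a clathrin adaptor (0.998). KDM6B, a histone H3 demethylase, and TNFRSF9, a receptor of the TNF receptor family, had r = 0.997 and 0.995. Within the cascade, r with MAPK3 was 0.94 for ARAF, 0.80 for MAP2K2, 0.46 for MAP2K1, 0.37 for HRAS, 0.21 for BRAF, -0.61 for NRAS and -0.69 for SOS1. These values describe 6 libraries that share depth, base composition and the 2 media, and carry no test.

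Genes that act beside the cascade were taken from 7 further lists of 95 genes, of which 87 passed the filter on low counts. None of the 87 passed the adjusted threshold. At an unadjusted p under 0.05, 7 were higher and 11 lower in FGFBP1-CM, which is 20.7% of the 87 and near the 21.7% of all genes. Without overlap between groups were 23 of 87 (26.4%), near the 26.0% of all genes. Of the 87, 37 had a log2 fold change above 0 and 50 below. The list values that follow are without the GC and length correction. With it, the medians of the 7 lists, in the order below, were 0.017, -0.068, -0.12, -0.035, -0.019, -0.034 and -0.086.

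Among the 15 tested receptor adaptors and RAS exchange factors, the median log2 fold change was 0.06, with 2 higher and 3 lower at an unadjusted p under 0.05. SOS2, the paralog of SOS1, had the lowest adjusted p of the 87 genes. Its mean level was 40.1 ± 2.42 CPM under Vector-CM against 53.6 ± 4.84 CPM under FGFBP1-CM (SD, n = 3 each), without overlap, with a log2 fold change of 0.42 (edgeR adjusted p = 0.0568). The lowest in that list was RASGRP2, a calcium-regulated exchange factor, at -0.24 (adjusted p = 0.308). The 8 GTPase-activating proteins, which return RAS to its GDP-bound form, had a median of -0.05 and ran from DAB2IP at -0.11 to RASAL2 at 0.17, with 0 of 8 under an unadjusted 0.05. The 11 other RAS-like GTPases had a median of -0.05, with 1 higher and 3 lower. RRAS was the lowest at -0.30 (adjusted p = 0.111) and MRAS, a partner of SHOC2, the highest at 0.26 (adjusted p = 0.135).

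The 10 genes of RAS lipid modification and trafficking had a median of 0.01, with 1 higher and 1 lower. GOLGA7, a subunit of the palmitoyltransferase of HRAS and NRAS, was the lowest at -0.29 (edgeR adjusted p = 0.091), and LZTR1, an adaptor for RAS ubiquitination, the highest at 0.27 (adjusted p = 0.208). The 15 scaffolds and regulators had a median of -0.00079 and ran from LAMTOR2 at -0.11 to SHOC2, which promotes RAF activation, at 0.17 (adjusted p = 0.218), with 1 higher and 0 lower. Among the 14 kinases and transcription factors that ERK phosphorylates, the median was -0.03, with 1 higher and 2 lower. MKNK2, which phosphorylates the translation factor eIF4E, was the lowest at -0.26 (adjusted p = 0.0822), and RPS6KA6 the highest at 0.33 (adjusted p = 0.0847). The 14 genes of the stress-activated and ERK5 modules had a median of -0.05, with 1 higher and 2 lower, and ran from MAPK11, a p38 kinase, at -0.33 (adjusted p = 0.171) to MAP2K4, which phosphorylates JNK, at 0.28 (adjusted p = 0.0715).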

How the data were processed

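RNA-seq was performed on 6 libraries of LX-2 cells, grouped by the sample labels. Per the submitters' processing notes, HISAT2 2.0.5 and featureCounts 1.5.0-p3 were used and the build is named hg18. The annotation and strand setting are not given in the sources used here. The raw counts per gene were deposited by the authors, together with FPKM values, whose implied gene length was the same in all 6 libraries for each gene reported. The labels describe ribosomal RNA depletion. Columns of annotation by the authors were not used. Of 60780 rows, 175 carried an identifier of the authors' own and stayed in library totals and tests. Coordinates are those of GENCODE 29 (GRCh38) for the same identifier, found for 96.3%, and the counting may have used another build.

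The groups were compared in R 4.3.3 with edgeR 4.0.16 (filterByExpr, TMM scaling with factors from 0.978 to 1.03, quasi-likelihood F-test, Benjamini-Hochberg over 16707 genes). The standard error is the log2 fold change divided by the square root of F. CPM are relative to the TMM-scaled total. Ratios were compared by an exact permutation test (SciPy 1.17.1). Depth of 14003780 to 18508113 counts per library gave each of the 8 genes a counting error of 2.35% to 7.20% in its shallowest library, and counting error is the only error this covers. Alternatives were scaling by RLE or by library size only, keeping every gene with 1 count or those with a mean of 1 CPM or more, DESeq2 1.42.0, limma 3.58.1 on log2(FPKM + 1) and log2(FPKM + 0.1), a block for the replicate number, a GC and length correction (loess span 0.3, values for 98.2% of tested genes) and leaving out each library.

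Named were all 8 genes, list genes past the adjusted threshold, the highest and lowest log2 fold change of each list with a mean of at least 5 CPM, and the 5 genes most correlated with MAPK3. The 8 genes and the lists were chosen with earlier results of these data known. Other genes of these families, and 1 of these 5, are not reported here.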

Additional observations from a re-analysis of the deposited data

How the results depend on the processing

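Of 128 refits of single genes (16 for each of the 8), 121 kept the direction and the side of the adjusted threshold, 3 brought MAPK3 past it and 4 changed sign. MAPK3 ran from -0.33 to -0.23 (log2), with an unadjusted p under 0.05 in 16 of 16 alternatives and adjusted p from 0.0287 to 0.261. ARAF had an unadjusted p under 0.05 in 15 of 16 and SOS1 in 8 of 16. BRAF ran from -0.12 to 0.0494 with 1 library left out, above 0 without Vector-CM replicate 3 (0.00049) or FGFBP1-CM replicate 1, and HRAS 0.04 with the GC and length correction, alone or with the replicate block (0.0370 and 0.0379). The HRAS to NRAS ratio difference was 0.035 with that correction. Genes of the 8 past the adjusted threshold numbered 1 with no filter and 1 with DESeq2, and 0 to 1 when 1 library was left out. At an unadjusted p under 0.05 they numbered 1 to 3 with 1 library left out, when 14.2% to 24.2% of all genes were counted. Genes without overlap numbered 2 to 5, the highest without FGFBP1-CM replicate 1 (MAPK3, MAP2K1, ARAF, HRAS and SOS1), where 31.7% of all genes did not overlap. Over all genes, calls numbered 20, and 38 with RLE scaling, 1382 with no filter, 11 with a mean of at least 1 CPM, 616 with DESeq2, 1 with limma on either FPKM scale, 90 with the replicate block, 109 with the GC and length correction, 116 with that correction and the block, and 4 to 883 with 1 library left out, the extremes being Vector-CM replicate 2 or 3 and FGFBP1-CM replicate 2. The causes of these shifts were not tested. With library size only, 64.7% of unadjusted calls were higher, against 51.0%, and the median of all genes moved from 0.0032 to 0.037. Same-numbered libraries had deviations correlated at -0.118, -0.022 and 0.148. The labels do not say what same-numbered libraries share, and these values cannot decide it. The replicate block changed no call among the 8 genes at the adjusted threshold and took the edgeR unadjusted p of SOS1 from 0.0505 to 0.0452. HRAS had the fewest counts, 193 to 270, and an interval of -0.26 to 0.16. BRAF, with 1135 to 1696 counts, had a similar interval of -0.25 to 0.15, and the part of depth in these widths was not tested.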

Other observations

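Copies and neighbours with shared sequence were counted as follows. Over the 6 libraries, the processed pseudogene MAP2K1P1 had 27 counts against 7686 for MAP2K1, BRAFP1 had 1 against 8789 for BRAF, and ARAFP1, ARAFP2 and ARAFP3 had 0 against 6133 for ARAF. MAP2K1 shares 432 exon bases with the antisense gene AC116913.1 (240 counts) and 216 with SNAPC5 (1564 counts) on the opposite strand, and ARAF shares 23 with SYN1 (12 counts). NDUFB2, which overlaps BRAF, had 2669 counts. No exon overlap was found for MAPK3, MAP2K2, HRAS, NRAS or SOS1.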
